A study of Homo sapiens with 6 samples.

Results

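The integrated stress response and the unfolded protein response are described here through 36 genes picked by symbol, with no threshold on any measured value. All 36 were measured, among 18417 genes in all, and each gene is read from its brightest probe set. By role they fall into 18 ATF4-driven genes, 14 genes of endoplasmic reticulum (ER) chaperones and ER-associated degradation, and 4 stress sensors with their direct factors. The samples were U-87 MG cells, an established human glioma line, grown in serum-containing DMEM, and total RNA was read on Affymetrix gene-level arrays. In 3 samples P68, a DEAD-box helicase whose gene is DDX5, was knocked down, and 3 are labelled P68 wild type. The treatment label names siP68 and NC as the transfected reagents without tying NC to the wild-type arrays, and all 6 samples share the line and the medium. The labels do not say whether samples of a group were separate cultures, nor whether equal replicate numbers mark a shared culture, day or batch, so a p-value here covers array-to-array spread that could be purely technical. Shares of cells were not measured, and fewer cells with a transcript cannot be told apart from less of it in each cell.

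In the integrated stress response, kinases such as PERK and GCN2 phosphorylate the translation factor eIF2, which slows protein synthesis overall and favours translation of ATF4. ATF4 then switches on genes for amino acid uptake, amino acid synthesis and tRNA charging, often from C/EBP-ATF response elements. The unfolded protein response uses PERK together with IRE1 and ATF6, whose products XBP1 and cleaved ATF6 raise ER chaperones through ER stress response elements. Shortage of amino acids can thus engage the ATF4 arm alone, while misfolded protein in the ER engages all arms.

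All values are log2 signals after RMA, so 1 unit is a 2-fold difference. The array medians lay between 4.32 and 4.37. DDX5 read 9.47, 9.79 and 9.91 in knockdown replicates 1 to 3 and 10.09, 10.25 and 10.30 in the wild type, a difference of -0.49 ± 0.13 (SE; limma adjusted p = 0.902), and the groups did not overlap. Of 8 glial and glioma markers, 4 (VIM, NES, GFAP and OLIG2) had a mean signal above the dimmest 40% of genes, and CD44, S100B, SOX2 and AQP4 did not. The same held for 2 of 3 neuronal markers (RBFOX3 and SNAP25), 2 of 3 endothelial markers (PECAM1 and VWF), 0 of 3 epithelial and 0 of 3 leukocyte markers, so these lists do not settle the cell type. With no detection call in use, low signals and background look alike.

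Between knockdown and wild type, none of the 36 genes passed. By limma, 0 of 36 had an adjusted p under 0.05 or an unadjusted p under 0.05, where 0% and 5.09% of the 18417 genes did. The groups overlapped for all 36 genes, against 10.1% of all genes without overlap. The differences, given as knockdown minus wild type, ran from -0.22 for VLDLR to 0.13 for TRIB3. Of the 18 ATF4-driven genes 13 lay below 0, with a median of -0.023, and of the 14 ER genes 9 lay below 0, with a median of -0.048. The median over all genes was 0.01, and 46.5% of them lay below 0. The ATF4-driven median turned to 0.07 without knockdown replicate 1 and moved to -0.17 without wild-type replicate 1, and for the ER genes leaving out knockdown replicate 3 gave -0.11 and leaving out knockdown replicate 2 gave 0.005.

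Across the arrays the ATF4-driven genes instead differed, as a median, between replicate 1 and the rest. In replicate 1 of both groups they were low: the median over the 18 genes, as the deviation of each gene from its own mean over the 6 arrays, was -0.25 in knockdown replicate 1 and -0.29 in wild-type replicate 1. It was 0.02 and 0.14 in knockdown replicates 2 and 3, and 0.16 and 0.22 in wild-type replicates 2 and 3. For the 14 ER genes the medians stayed closer to 0, at -0.02 and -0.05 in the replicate 1 arrays and between -0.08 and 0.07 in the other 4. Over all genes the same medians lay between -0.01 and 0.02.

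**Figure D1:**
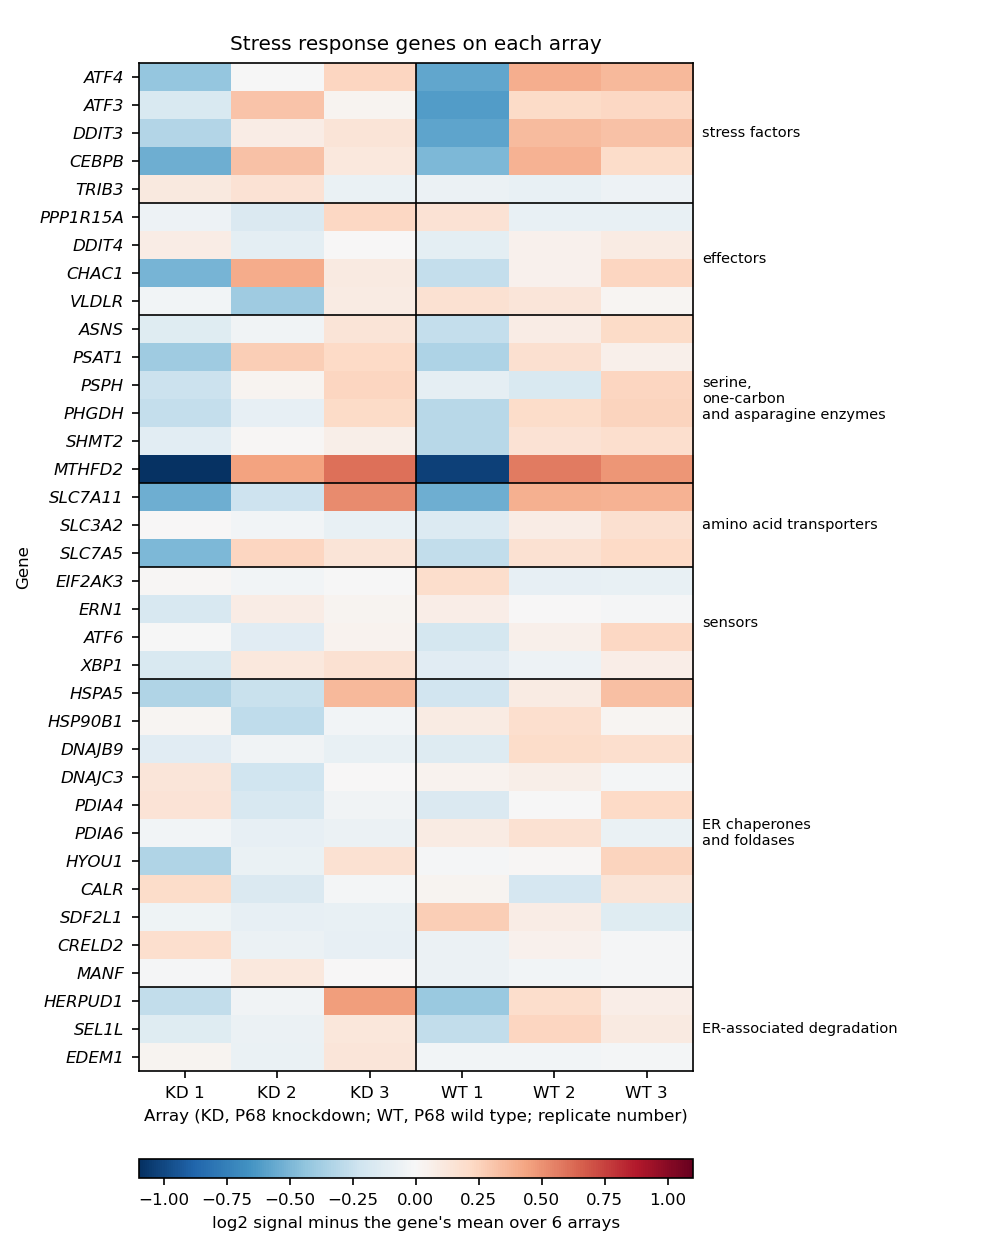
Heat map of the 36 genes (rows, by role) on the 6 arrays (columns, KD for P68 knockdown and WT for P68 wild type), coloured by log2 signal minus the gene's mean over the arrays. Both replicate 1 columns are blue for most stress factors, enzymes and transporters and pale for most ER chaperones, with MTHFD2 the darkest row.

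Replicate 1 was compared with replicates 2 and 3 in limma over all genes, with group kept as a term, and the difference is the mean of the 2 replicate 1 arrays minus the mean of the other 4. This split was singled out with earlier results of the same arrays known, so its p-values describe these arrays and are not independent evidence. At an adjusted p under 0.05, 5 of the 36 genes were lower in replicate 1 and 0 were higher, where 0.418% of all genes were lower and 0.331% higher. The 5 were MTHFD2, CEBPB, ATF4, DDIT3 and SLC7A5, all ATF4-driven. At an unadjusted p under 0.05, 12 of the 18 ATF4-driven genes and 3 of the 14 ER genes were lower, against 6.08% of all genes, and no member was higher, against 5.5% of all genes. Of the 36, 26 lay below 0, against 51.6% of all genes. A difference of -0.5 or lower was seen for 9 of 18 ATF4-driven genes and 1 of 14 ER genes, against 1.1% of all genes. Both replicate 1 arrays lay below the other 4 for 12 of 18 ATF4-driven genes, 3 of 14 ER genes and 1 of 4 sensors, where this held for 9.72% of all genes. Of 8 glial and glioma markers 6 lay below 0 and 2 above, none passed, and the median was -0.095, with both replicate 1 arrays above the other 4 for VIM at 0.46 (limma adjusted p = 0.134), and the part of this in the members' values was not tested. The median difference was -0.49 for the ATF4-driven genes, -0.00375 for the ER genes and -0.0075 for all genes. The adjusted calls rest on few arrays: without knockdown replicate 1 no member passed, without knockdown replicate 3 or any 1 wild-type array MTHFD2 alone passed, and without knockdown replicate 2 the calls were MTHFD2, CEBPB, ATF4 and SLC7A11. The ATF4-driven median stayed between -0.50 and -0.36 with any 1 array left out.

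The gap was of like sign in both groups. For the ATF4-driven genes the median of replicate 1 minus the mean of replicates 2 and 3 was -0.36 on knockdown arrays. On wild-type arrays it was -0.46. Of the 18 genes, 13 were below 0 in both groups, against 5202 of all 18417 genes. Whether the gap differed between the groups was tested in limma with an interaction term. No gene passed an adjusted p under 0.05 (0 of 18417, with 945 genes or 5.13% at an unadjusted p under 0.05), and the lowest adjusted p among the 36 was 0.919. With both replicate 1 arrays left out, an alternative added after the data were seen, knockdown minus wild type had a median of -0.085 for the ATF4-driven genes and -0.11 for the ER genes, and again no member passed in limma.

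**Figure D2:**
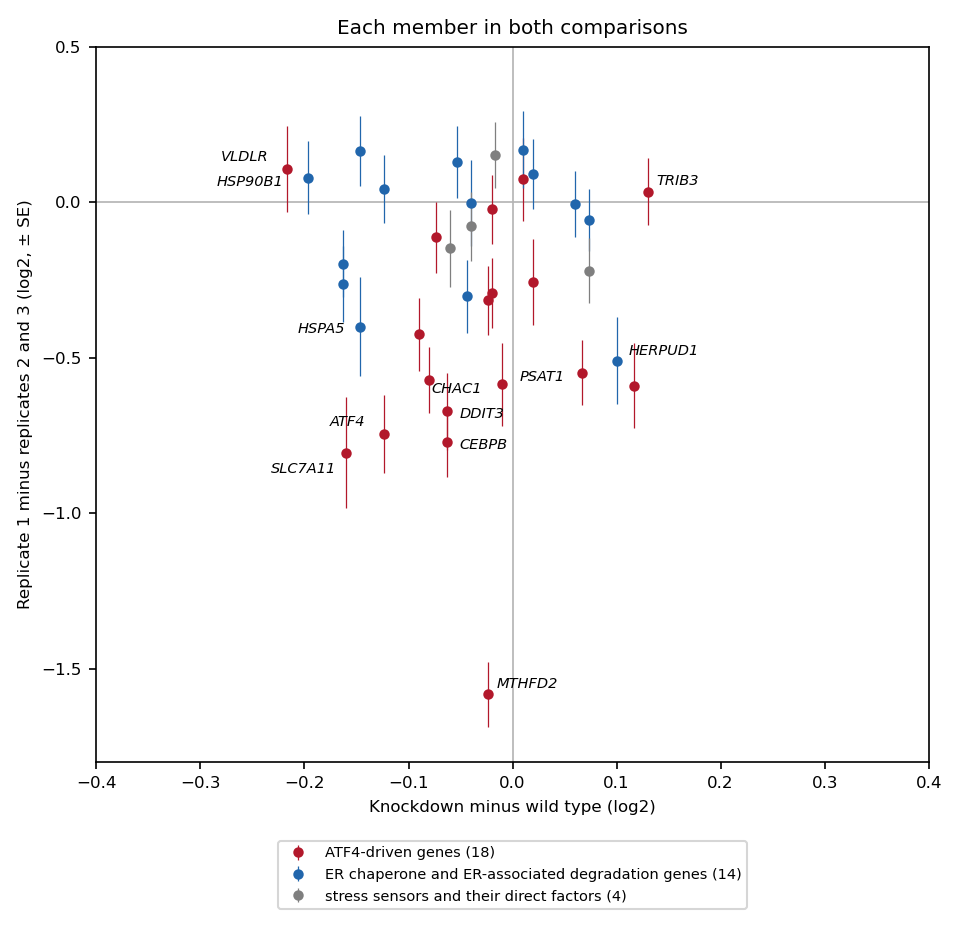
Scatter of the 36 genes, with knockdown minus wild type (log2) on the x axis and replicate 1 minus replicates 2 and 3 (log2, bars are the SE of the fit) on the y axis, coloured by role. The x values stay between -0.22 and 0.13, while the ATF4-driven genes reach -1.58 on the y axis and the ER genes -0.51.

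The promoter sequences of some of these genes carry the elements named above, and a few are printed to show which of them the ATF4-driven and the ER genes hold before their values are given. RefSeq windows of 300 bases (GRCh38.p14, 250 before to 50 after a gene's start) were found for 33 of the 36 genes, not for PSPH, SHMT2 and SLC7A11. Both strands were searched for the C/EBP-ATF response element TGATGNAA, the ER stress response element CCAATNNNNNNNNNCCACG and the ER stress response element II, which is ATTGG and CCACG with 1 base between them, where N is any base. Positions count from the start site, with the last base before it as -1. The pair of matches in HERPUD1 does not overlap.

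The C/EBP-ATF letters stood in 4 of 15 ATF4-driven genes with a window (ATF3, CHAC1, ASNS and SLC3A2), in 1 of 14 ER genes (HERPUD1) and in 4.46% of all 27305 genes with a window. In the lines below, 5′ to 3′ on the gene's strand, the match is in capitals, and 3 members and the alanyl-tRNA synthetase gene AARS1 are shown. ASNS is at chr7:97872439-97872498, minus strand, with the match from -68. CHAC1 is at chr15:40953240-40953299, plus strand, with the match from -209 on the opposite strand. ATF3 is at chr1:212565194-212565253, plus strand, with the match from -191. AARS1 is at chr16:70289656-70289715, minus strand, with the match from -187 on the opposite strand.
ASNS: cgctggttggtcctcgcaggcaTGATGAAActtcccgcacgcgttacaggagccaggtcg
CHAC1: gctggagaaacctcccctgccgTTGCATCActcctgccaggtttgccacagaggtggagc
ATF3: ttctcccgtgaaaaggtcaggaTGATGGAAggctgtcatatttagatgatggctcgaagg
AARS1: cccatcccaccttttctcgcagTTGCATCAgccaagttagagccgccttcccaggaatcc

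The ER stress response element stood in 5 of 14 ER genes (HSPA5, HSP90B1, PDIA6, CALR and CRELD2) and in XBP1, in 0 of 15 ATF4-driven genes, and in 0.0916% of all genes with a window. The element II stood in 3 of 14 ER genes (HYOU1, SDF2L1 and HERPUD1), in 0 of 15 ATF4-driven genes and in 0.0696% of all genes. HERPUD1 was the only member to hold both the C/EBP-ATF letters, from -176, and an ER element, from -117. The 250 bases before the start are printed for HERPUD1 (chr16:56931892-56932141, plus strand) and HSPA5 (chr9:125241344-125241593, minus strand), the pair of ER genes furthest below 0 in replicate 1, and 60 bases for HSP90B1 (chr12:103930199-103930258, plus strand) and CALR (chr19:12938367-12938426, plus strand), which were not low there. Capitals mark the matches to any of the 3 elements.
HERPUD1: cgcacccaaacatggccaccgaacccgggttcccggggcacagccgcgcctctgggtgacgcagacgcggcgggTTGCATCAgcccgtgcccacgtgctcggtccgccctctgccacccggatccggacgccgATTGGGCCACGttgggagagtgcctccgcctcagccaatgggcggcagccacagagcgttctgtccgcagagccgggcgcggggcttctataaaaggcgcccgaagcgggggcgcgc
HSPA5: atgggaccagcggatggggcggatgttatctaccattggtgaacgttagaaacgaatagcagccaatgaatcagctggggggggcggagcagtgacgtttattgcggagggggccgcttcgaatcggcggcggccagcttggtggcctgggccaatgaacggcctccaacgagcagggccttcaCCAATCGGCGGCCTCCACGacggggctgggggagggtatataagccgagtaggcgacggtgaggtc
HSP90B1: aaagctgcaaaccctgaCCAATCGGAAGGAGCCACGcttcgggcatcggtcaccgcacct
CALR: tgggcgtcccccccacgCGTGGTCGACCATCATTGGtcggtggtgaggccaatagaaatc
The C/EBP-ATF match alone did not separate genes by replicate. Over the 511 measured genes with the C/EBP-ATF letters the median of replicate 1 minus the others was -0.01. Both replicate 1 arrays were lowest for 10.6% of them, against 9.72% of all genes. Over 19 measured genes with the ER stress response element the median was -0.045, and both were lowest for 4, or 21.1%. Over 17 with the element II the median was 0.1025, and both were lowest for 2, or 11.8%. ATF4, CEBPB, DDIT3, MTHFD2, PSAT1 and SLC7A5 held no match in these windows and were among the lowest members.

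Among the stress factors, ATF4, CEBPB and DDIT3 were lower in replicate 1 and TRIB3 was level. ATF4, the transcription factor at the centre of the response, read 6.92, 7.34 and 7.58 in knockdown replicates 1 to 3 and 6.77, 7.74 and 7.70 in the wild type. Both replicate 1 arrays were below the other 4, and the groups overlapped. The difference was -0.745 ± 0.13 (SE; limma adjusted p = 0.0357) for replicate 1, or 59.7% of the signal of the others, and -0.12 ± 0.25 (SE) for knockdown minus wild type. A second, dimmer ATF4 probe set gave 0.0275 for replicate 1, so the probe sets of ATF4 disagreed. The annotation gives both the symbol ATF4, and which of them reads the gene rather than a near-identical copy was not settled, and with their mean the value was -0.36 (limma adjusted p = 0.2). CEBPB, a bZIP partner of ATF4, read 8.05, 8.91 and 8.70 on knockdown arrays and 8.09, 8.97 and 8.79 on wild-type arrays. Its replicate 1 arrays agreed closely with each other, with a difference of -0.77 ± 0.11 (SE; limma adjusted p = 0.0227). DDIT3, which encodes the pro-apoptotic factor CHOP, read 5.64, 6.04 and 6.10 against 5.38, 6.31 and 6.28, with both replicate 1 arrays lowest. Its replicate 1 difference was -0.67 ± 0.13 (SE; limma adjusted p = 0.0482, or 0.0516 with each array centred on its median and 0.0533 with quantile normalization repeated). ATF3, a stress-induced bZIP repressor, gave -0.59 ± 0.14 (SE) for replicate 1, which did not pass (limma adjusted p = 0.0984), although both replicate 1 arrays were below the others. TRIB3, a pseudokinase that CHOP and ATF4 induce, read 5.59, 5.64 and 5.41 on knockdown arrays and 5.42, 5.40 and 5.43 on wild-type arrays. It had the highest knockdown minus wild type value of the 36, 0.13 ± 0.10 (SE; limma adjusted p = 0.912), and 0.035 for replicate 1.

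The enzymes of serine, one-carbon and asparagine synthesis all lay below 0 in replicate 1, and MTHFD2 stood out. MTHFD2, the mitochondrial enzyme that oxidises methylene-tetrahydrofolate, read 5.92, 7.45 and 7.61 in knockdown replicates 1 to 3 and 5.98, 7.58 and 7.49 in the wild type. The 2 replicate 1 arrays were over a log2 unit below the rest, and within each replicate number the groups were close. Its difference of -1.58 ± 0.10 (SE; limma adjusted p = 0.000654) was the lowest of all 18417 genes, at 33.4% of the signal of the other arrays, and the adjusted p was 0.12 without knockdown replicate 1. A second, dimmer MTHFD2 probe set, with the same annotation, read 4.47, 5 and 5.40 on knockdown arrays and 4.46, 5.20 and 5.44 on wild-type arrays, a difference of -0.795. Both probe sets were lowest in replicate 1, the size of the difference depended on the probe set, and which of them reads the gene rather than a near-identical copy was not settled. Knockdown minus wild type was -0.02 ± 0.47 (SE), and with both replicate 1 arrays left out it was -0.005 ± 0.12 (SE), so the wide error came with the replicate 1 arrays. PSAT1, the phosphoserine aminotransferase, gave -0.55 ± 0.10 (SE; limma adjusted p = 0.0514) in replicate 1, just outside the threshold. PHGDH, which opens serine synthesis, read 5.84, 6.01 and 6.31 against 5.79, 6.30 and 6.34, with a replicate 1 difference of -0.425 ± 0.12 (SE; limma adjusted p = 0.176). SHMT2, the mitochondrial serine hydroxymethyltransferase, gave -0.315 and ASNS, the asparagine synthetase, gave -0.29. For PSPH, the phosphoserine phosphatase, the value was -0.255. On this probe set it was the only enzyme of the 6 whose replicate 1 arrays did not both lie below the others. A second, dimmer PSPH probe set read 4.21, 4.52 and 4.63 on knockdown arrays and 4.10, 4.63 and 4.45 on wild-type arrays. There both replicate 1 arrays were lowest, with a difference of -0.4025, so the probe sets of PSPH disagreed. None of the 6 passed in knockdown minus wild type, where they ran from -0.09 for PHGDH to 0.07 for PSAT1.

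All amino acid transporters lay below 0 in replicate 1, SLC3A2 least. SLC7A5, the light chain of the LAT1 exchanger for large neutral amino acids, read 5.13, 5.86 and 5.77 on knockdown arrays and 5.36, 5.79 and 5.85 on wild-type arrays. Both replicate 1 arrays were lowest, and the difference of -0.57 ± 0.11 (SE) passed (limma adjusted p = 0.0482). SLC7A11, the cystine importer xCT, read 4.24, 4.55 and 5.30 on knockdown arrays and 4.24, 5.17 and 5.16 on wild-type arrays. Its replicate 1 difference of -0.805 ± 0.18 (SE) did not pass (limma adjusted p = 0.087), with knockdown replicate 2 lying between the replicate 1 arrays and the rest, and without that array it was -0.98 (limma adjusted p = 0.0186). SLC3A2, the heavy chain that both light chains pair with, gave -0.11 ± 0.11 (SE), and its arrays interleaved. In knockdown minus wild type the 3 ran from -0.16 for SLC7A11 to -0.07 for SLC3A2.

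The effectors were split. CHAC1, which breaks down glutathione, read 5.38, 6.30 and 5.99 on knockdown arrays and 5.63, 5.94 and 6.13 on wild-type arrays. Its replicate 1 arrays were the lowest of the 6, with a difference of -0.585 ± 0.13 (SE; limma adjusted p = 0.0947). VLDLR, a lipoprotein receptor induced through ATF4, read 4.89, 4.53 and 5.01 against 5.09, 5.05 and 4.94. It had the lowest knockdown minus wild type value of the 36, -0.22 ± 0.13 (SE; limma adjusted p = 0.902), which came from knockdown replicate 2 and was -0.08 without it, and it gave 0.11 for replicate 1. PPP1R15A, the GADD34 subunit that reverses eIF2 phosphorylation, gave 0.075 for replicate 1, and DDIT4, the mTORC1 inhibitor REDD1, gave -0.02. So 12 of the 18 ATF4-driven genes had both replicate 1 arrays lowest on their brightest probe sets. The 6 without this were TRIB3, PPP1R15A, DDIT4, VLDLR, PSPH and SLC3A2. On the dimmer probe sets PSPH had both replicate 1 arrays lowest and ATF4 did not.

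**Figure D3:**
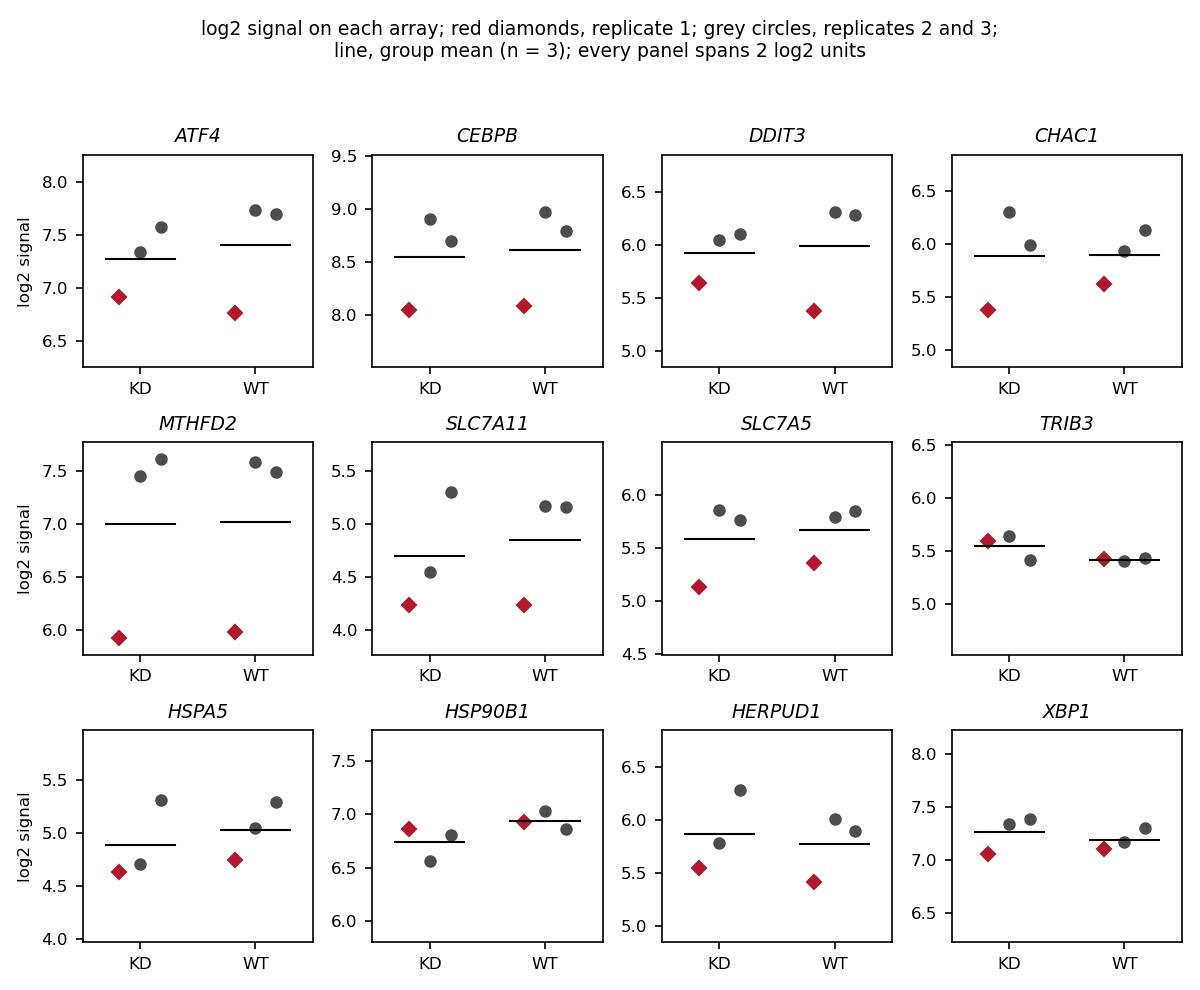
log2 signal of 12 genes on each array, with KD for P68 knockdown and WT for P68 wild type. Red diamonds are replicate 1, grey circles replicates 2 and 3, lines the group means (n = 3), and every panel spans 2 log2 units. Replicate 1 lies lowest in both groups for ATF4, CEBPB, DDIT3, CHAC1, MTHFD2, SLC7A11, SLC7A5, HSPA5, HERPUD1 and XBP1. For HSPA5, wild-type replicate 1 lies above knockdown replicate 2. For TRIB3 and HSP90B1, replicate 1 lies within the range of the other arrays of both groups.

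The 4 sensors and direct factors varied little. XBP1, the factor spliced by IRE1, read 7.06, 7.34 and 7.39 on knockdown arrays and 7.10, 7.17 and 7.30 on wild-type arrays. Its replicate 1 arrays were lowest by a small margin, with a difference of -0.22 ± 0.10 (SE; limma adjusted p = 0.474), and these probe sets do not separate spliced from unspliced XBP1. The other three gave -0.15 for ATF6, -0.08 for ERN1, which encodes IRE1, and 0.15 for EIF2AK3, which encodes PERK. EIF2AK3 was the only member whose replicate 1 arrays were both above the others, where 9.87% of all genes showed this.

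The ER chaperones and foldases lay on both sides of 0, and none passed. Of 11, 5 lay below 0 in replicate 1 and 6 above, from -0.40 for HSPA5 to 0.17 for CALR, with a median of 0.0425. HSPA5, the BiP chaperone that holds the sensors inactive, read 4.63, 4.71 and 5.31 on knockdown arrays and 4.75, 5.05 and 5.29 on wild-type arrays. Its replicate 1 arrays were low but overlapped the others through knockdown replicate 2, and the difference of -0.40 ± 0.16 (SE) did not pass (limma adjusted p = 0.363). HSP90B1, the ER paralog of HSP90, read 6.86, 6.56 and 6.81 against 6.93, 7.03 and 6.86. For it, knockdown minus wild type was -0.20 ± 0.11 (SE; limma adjusted p = 0.902), the lowest of the chaperones, with knockdown replicate 2 the dimmest array and -0.105 without it. The calcium-binding chaperone CALR, the HSPA5 regulator DNAJC3, the foldase PDIA6, the cofactor SDF2L1 and the secreted CRELD2 gave 0.17, 0.13, 0.04, 0.165 and 0.09 for replicate 1. For PDIA4, a disulfide isomerase, and MANF, a secreted ER stress protein, the values were -0.0025 and -0.06. DNAJB9, a cochaperone of HSPA5 that acts on IRE1, gave -0.20 and HYOU1, an exchange factor of HSPA5, gave -0.26. Only DNAJB9 of the 11 had both replicate 1 arrays below the others, and it read 3.45 to 3.79 over the 6 arrays. In knockdown minus wild type 8 of 11 lay below 0, with a median of -0.12 and a range from -0.20 to 0.07.

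In ER-associated degradation, HERPUD1 and SEL1L had both replicate 1 arrays lowest and EDEM1 did not. HERPUD1, a membrane adaptor of the degradation complex, read 5.55, 5.78 and 6.28 on knockdown arrays and 5.41, 6.01 and 5.89 on wild-type arrays. Both replicate 1 arrays were lowest, with a difference of -0.51 ± 0.14 (SE; limma adjusted p = 0.168), the furthest from 0 of the ER genes. Its knockdown minus wild type value of 0.10 ± 0.20 (SE) turned to -0.105 without knockdown replicate 3. SEL1L, the scaffold of the ubiquitin ligase complex, gave -0.30 ± 0.12 (SE; limma adjusted p = 0.343) for replicate 1, and EDEM1, a lectin for misfolded glycoproteins, gave -0.005 ± 0.11 (SE).

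Further genes of these pathways, listed by function, were taken list by list. Of 12 aminoacyl-tRNA synthetase genes, which charge tRNAs with amino acids, all 12 lay below 0 in replicate 1 in both groups, with a median of -0.485. Among all 18417 genes, 5202 lay below 0 in both groups. Both replicate 1 arrays were lowest for 8 of the 12, against 9.72% of all genes. In limma 2 of the 12 passed the threshold as lower, against 0.418% of all genes. SARS1, the seryl-tRNA synthetase gene, read 6.70, 7.25 and 7.62 on knockdown arrays and 6.67, 7.52 and 7.63 on wild-type arrays, a replicate 1 difference of -0.82 ± 0.13 (SE; limma adjusted p = 0.0283). The other that passed was LARS1, at -0.685 ± 0.11 (SE; limma adjusted p = 0.0284). In knockdown minus wild type 11 of 12 lay below 0 (median -0.15), with none past the threshold and WARS1 at -0.21 ± 0.18 (SE), and the medians within replicates 1, 2 and 3 were -0.07, -0.285 and -0.075. The C/EBP-ATF letters stood in 7 of the 10 synthetase genes with a window.

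Of 24 other measured ATF4 and amino acid response genes, 20 lay below 0 in replicate 1 and 4 above, with a median of -0.16. Only SLC7A1, the cationic amino acid transporter, passed, at 5.09, 6.05 and 5.94 on knockdown arrays and 5.33, 5.98 and 5.97 on wild-type arrays, a difference of -0.775 ± 0.11 (SE; limma adjusted p = 0.0205). Both of its replicate 1 arrays stood well below the rest. The calls were thus 1 of 24 genes, against 0.418% of all genes called lower. For CTH, the cystathionine gamma-lyase gene, which had the largest knockdown minus wild type difference of this list, the values were -0.46 ± 0.24 (SE; limma adjusted p = 0.902) there and -0.675 ± 0.14 (SE; limma adjusted p = 0.0675) for replicate 1. Knockdown and wild type did not overlap for 3 of the 24, against 10.1% of all genes. A list of 12 genes upstream of ATF4, made of eIF2 kinases, eIF2 and eIF2B subunits and the eIF2 phosphatase subunit PPP1R15B, had a median of 0.05 in replicate 1. EIF2S2, an eIF2 subunit, was furthest from 0 at -0.40 ± 0.11 (SE; limma adjusted p = 0.171), and none passed. Both replicate 1 arrays were lowest for 3 of the 12 and highest for 1, against 9.72% and 9.87% of all genes. At an unadjusted limma p under 0.05, 3 of the 12 were lower and 0 higher, against 6.08% and 5.5% of all genes. EIF2S3, the gamma subunit, gave 0.36 ± 0.11 (SE; limma adjusted p = 0.902) for knockdown minus wild type, without overlap of the groups. Its mean signal was among the dimmest 40% of genes. EIF2B5, at -0.19, did not overlap either, so this held for 2 of the 12, against 10.1% of all genes.

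Of 37 other genes of ER folding, translocation and degradation, 23 lay above 0 and 13 below in replicate 1, with a median of 0.07. ERO1A, the ER oxidase, was the only one past the threshold, at -0.745 ± 0.13 (SE; limma adjusted p = 0.0374), with 5.97, 6.48 and 6.89 on knockdown arrays and 6.06, 6.89 and 6.78 on wild-type arrays. That was 1 of 37 genes, against 0.418% of all genes called lower. In knockdown minus wild type EDEM3, a mannosidase of glycoprotein degradation, was furthest from 0 at -0.29 ± 0.17 (SE; limma adjusted p = 0.902), and none passed. Knockdown and wild type did not overlap for 5 of the 37, against 10.1% of all genes. Of 10 other ER stress transducers none passed in either comparison, with NFYB, a subunit of the CCAAT-binding factor NF-Y, at -0.515 ± 0.13 (SE; limma adjusted p = 0.134) for replicate 1 and the ATF6 protease gene MBTPS1 at 0.20 ± 0.15 (SE; limma adjusted p = 0.912) for knockdown minus wild type.

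In a list of heat shock genes, mostly cytosolic chaperones with the mitochondrial HSPD1 and HSPE1 and the factor HSF1, 3 of 15 measured were higher in replicate 1 in limma and 0 were lower. Of all genes 0.331% were called higher and 0.418% lower. Of the 15, 12 lay above 0, with a median of 0.24, and HSPB1, HSPA4 and STIP1 lay below 0. Those above 0 include HSP90AA1, HSPA1L, CHORDC1 and HSPE1, whose mean signals were among the dimmest 40% of genes. HSPA8, the constitutive cytosolic HSP70, read 9.61, 7.86 and 8.11 on knockdown arrays and 9.69, 8.30 and 8.13 on wild-type arrays, a difference of 1.55 ± 0.12 (SE; limma adjusted p = 0.00113), the highest of all 18417 genes. The others past the threshold were the cochaperone genes DNAJA1 at 1.15 and HSPH1 at 0.915 (limma adjusted p = 0.0074 and 0.00705). Of 16 cholesterol synthesis genes 11 lay above 0 and 1 passed, EBP at 0.83 ± 0.15 (SE; limma adjusted p = 0.0482), with a median of 0.06. The share of all genes called higher was 0.331%. In knockdown minus wild type none of either list passed, with HSPA1L at 0.23 ± 0.12 (SE) and INSIG1 at 0.15 ± 0.10 (SE; both limma adjusted p = 0.902) furthest from 0. The mean signals of HSPA1L and INSIG1 were both among the dimmest 40% of genes. Knockdown and wild type did not overlap for INSIG1, 1 of the 16, and for 0 of the 15 heat shock genes, against 10.1% of all genes. What sets the replicate 1 arrays apart was not tested.

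**Figure D4:**
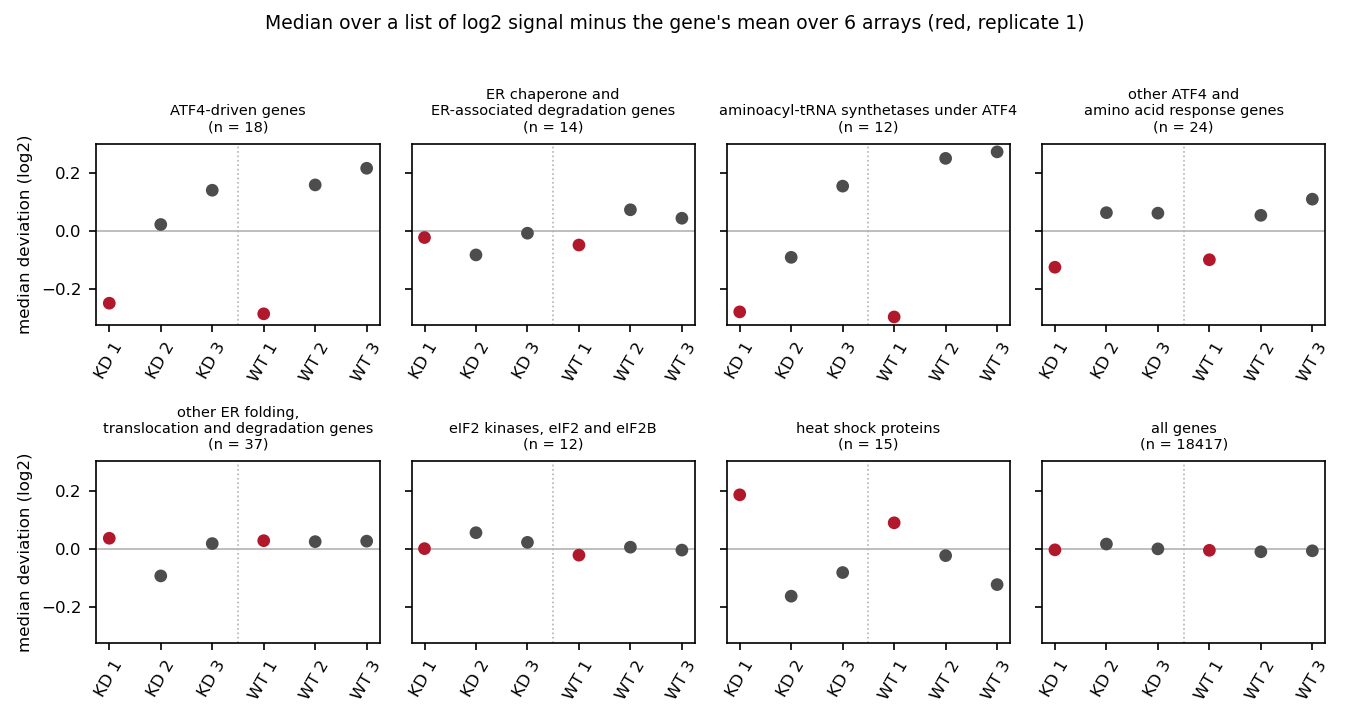
Median over each gene list of log2 signal minus the gene's own mean over the 6 arrays, on each array (KD, P68 knockdown; WT, P68 wild type), with replicate 1 in red. Red points lie lowest for the 18 ATF4-driven genes and the 12 tRNA synthetase genes, highest for the 15 heat shock genes, and near 0 for the eIF2 genes and all genes.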

How the data were processed

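The deposited table holds log2 signals of 29096 probe sets on 6 arrays, made with RMA per the submitters' processing notes, with software, version and filters not given in the sources used here. RMA equalises signal distributions between arrays, so a change shared by most genes is not visible. The platform annotation gave 1 symbol to 19460 probe sets, several to 1754 and none to 7882, and 19429 of the 19460 matched RefSeq (GRCh38.p14) by gene identifier. The brightest probe set was kept for each of 18417 genes. Both comparisons were fitted on all genes with limma 3.58.1 in R 4.3.3 (lmFit, eBayes, two-sided, Benjamini-Hochberg over all genes, threshold 0.05), with no filter on dim probe sets, and were tested on simulated data. The number of arrays limits precision, with a median SE of 0.12 in both fits. No array was a copy of another, since pairs differed with an SD of at least 0.217.

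The members, lists and the replicate 1 comparison were chosen with earlier results of these data known. Array values are given in full for ATF4, DDIT3, HSPA5 and XBP1, for the member of each role furthest from 0 in each comparison and, chosen after its value was seen, for SLC7A5. In other lists, the gene furthest from 0 in each comparison is named, with LARS1, DNAJA1 and HSPH1 named after their values were seen. Counts over these lists cover the genes measured here, and other listed genes were not analysed here. Promoter windows are from RefSeq. Alternatives were other scalings, a dim filter, other probe set and variance choices, a replicate block and leaving out arrays.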

Additional observations from a re-analysis of the deposited data

How the results depend on the processing

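In knockdown against wild type, 0 genes and 0 members passed under every alternative run, except that an unadjusted p under 0.05 gave 937 genes and 0 members. The replicate block also left 0 genes past the threshold, with medians of -0.0233 for the ATF4-driven and -0.0483 for the ER members. Deviations from the group means correlated at 0.193, -0.0382 and 0.0959 between the arrays numbered 1, 2 and 3, so the numbers were not taken as pairs, and not every array correlated best with its own number. The ER median ran from -0.112 to 0.005 with 1 array left out and was -0.11 without both replicate 1 arrays.

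In replicate 1 against replicates 2 and 3, 138 genes passed, against 230 with the dimmest 40% left out, 229 with an intensity trend and robust estimation, 2132 at an unadjusted p under 0.05 and 0 to 110 with 1 array left out. Fewer arrays leave fewer residual degrees of freedom, and where 1 replicate 1 array was left out the lone one was assumed to vary like the others. Of the members 5 passed, against 15 at an unadjusted p under 0.05 and 0 to 4 with 1 array left out. The ATF4-driven median was -0.392 with all probe sets of a gene averaged and -0.499 to -0.358 with 1 array left out, and the ER median -0.06 to 0.015. No called value of a named member changed sign under an alternative. Detection calls were not used here, and 32 of the 36 members lay above the dimmest 40% of genes, all but ASNS, DNAJB9, PDIA6 and EIF2AK3.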

Other observations

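Outside the lists, and chosen after their values were seen, VEGFA, the angiogenic growth factor gene, was lower in replicate 1, at -0.94 (log2; limma adjusted p = 0.0171), and TXNIP, a glucose-responsive arrestin, was at -1.16 (limma adjusted p = 0.00643). Replicate 1 minus the mean of replicates 2 and 3 was -0.70 on knockdown arrays and -1.185 on wild-type arrays for VEGFA, and -1.07 and -1.245 for TXNIP.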
